A study of Mus musculus with 5 samples.

Results

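Metabotropic glutamate receptors are G protein-coupled receptors that sense glutamate released at synapses and glutamate that escapes from them. Grm5 belongs to group I, whose receptors couple to Gq, activate phospholipase C and release calcium from internal stores, and which in neurons sit mostly on the receiving side of the synapse. Grm2 and Grm3 form group II, and Grm4, Grm7 and Grm8 belong to group III. Both of these groups couple to Gi/o, lower cyclic AMP and, on nerve endings, restrain transmitter release, and Grm3 and Grm5 are also known from glial cells. The account below follows these 6 genes, chosen by their symbols, among 31053 genes counted in single nuclei of the mouse paraventricular hypothalamus, a nucleus that holds the oxytocin and vasopressin neurons.

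The series has 5 single-nucleus RNA libraries (10x Genomics), each pooled from 2 to 4 male mice on a C57BL6 background. Mice of the first experiment carried OT-Cre, which acts in oxytocin neurons, together with the tdTomato reporter Rosa26tm9(CAG-tdTomato)Hze, and were sampled at 5 weeks. Their dams had received saline (10 mL/kg, the saline library) or sodium valproate (500 mg/kg, the VPA library) on day 12.5 of gestation. Mice of the second experiment carried OT-Cre and Rosa26dreaddm3 (stop-hM3), a receptor switched on by Cre and activated by clozapine N-oxide (CNO). All of these mice had been exposed to valproate before birth, had AAV injected at the paraventricular and supraoptic nuclei, and were sampled at 5 to 7 weeks. They were given saline (hM3 control library, 1 library) or CNO (replicates 1 and 2, here CNO 1 and CNO 2) on postnatal day 2. The contents of the virus and the day of injection are not given in the sources used here. Nuclei were sorted by DNA staining toward larger sizes, so every share of nuclei is a share after that sort. The labels do not say that the 2 CNO libraries came from separate litters, and their spread may be partly technical.

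Of 32292 deposited nuclei, 29484 were used, with 48379275 to 71152725 unique molecular identifiers (UMIs, each counting 1 captured RNA molecule) in a library. Over all deposited nuclei, the median nucleus held 11068 UMIs in the saline library, 5451 in VPA, 11119 in the hM3 control, 11913 in CNO 1 and 3722.5 in CNO 2. Between 4 and 23 barcodes were shared by any pair of libraries, at most 0.374% of the smaller one. Classes were named by marker genes. Neuron-like nuclei (18422) comprised GABAergic-like nuclei (10544), Sim1-lineage-like nuclei of the paraventricular lineage (4637), oxytocin-like nuclei (434) and thalamus-like nuclei (2807), the last from outside the labelled tissue. Glia comprised 4792 astrocyte-like, 2589 oligodendrocyte-like and 717 oligodendrocyte progenitor-like nuclei, 157 committed oligodendrocyte progenitor-like nuclei and 369 microglia-like nuclei. A further 1796 nuclei stayed outside the classes, 1617 of them in the second experiment. Neither the members nor Oxt nor Avp entered the clustering.

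Levels are given as CPM, the member's UMIs summed over the nuclei of a class in a library per 1000000 UMIs of those nuclei. The ± values are standard deviations over libraries, which span the groups of the study. Intervals at 95% cover counting error only, and nothing in them reflects differences between animals or preparations.

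In the nuclei used, the 6 genes held 1283247 of 302093276 UMIs, 0.425%, and between 0.413% and 0.448% in each library. Over all deposited nuclei, with none left out, Grm7 gave 659977 UMIs and Grm5 485951, Grm8 164181 and Grm3 82170, whereas Grm4 gave 7827 and Grm2 1193. Nuclear RNA is rich in unspliced transcripts, and gene length differs greatly among the members. In the GENCODE vM21 annotation of GRCm38, Grm7 spans 921.6 kb on the plus strand of chr6:110645581-111567230 and Grm8 spans 860.1 kb on the minus strand of chr6:27275119-28135178. Grm5 spans 550.7 kb at chr7:87584168-88134907 (plus) and Grm3 spans 239.6 kb at chr5:9485541-9725170 (minus). Grm4 spans 99.02 kb at chr17:27422387-27521403 (minus), and Grm2, the shortest, covers 12.99 kb at chr9:106643095-106656082 (minus). Divided by span, the mean level in neuron-like nuclei was 2.94 CPM per kb for Grm5, 2.39 for Grm7, 0.702 for Grm3, 0.628 for Grm8, 0.307 for Grm2 and 0.270 for Grm4. Length scaling thus put Grm5 above Grm7 and brought Grm2 next to Grm4. Per kb of exon the order at the top differed, with Grm7 at 374 and Grm5 at 158 CPM per kb. Genes on the opposite strand overlap Grm2 (Gm28111, 99 UMIs over all deposited nuclei) and Grm7 (Gm20387, 1283 UMIs), and the use of strand in counting is not given in the sources used here.

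**Figure D1:**
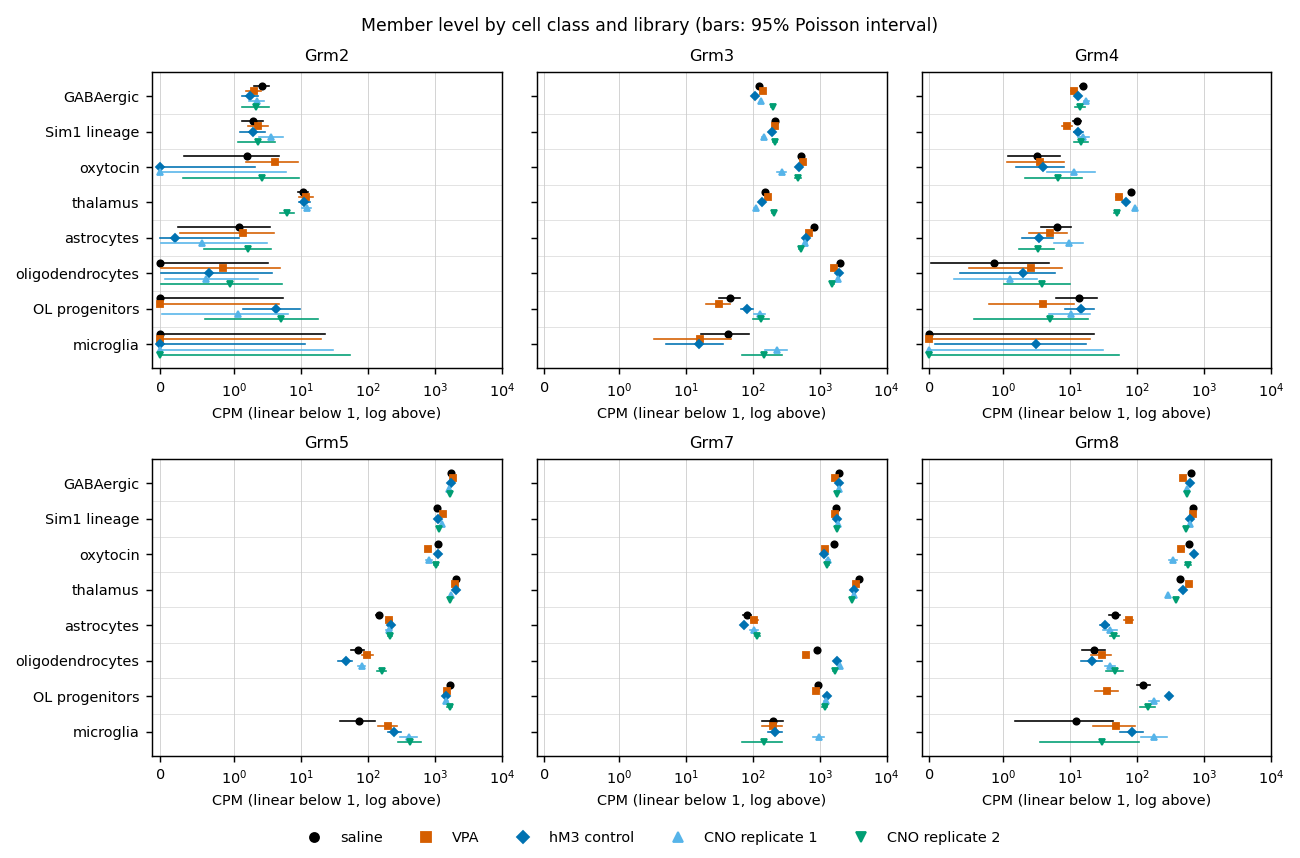
Level of each member in CPM (horizontal axis, linear below 1 and logarithmic above) in 8 cell classes (rows) and 5 libraries (colours and symbols), with 95% Poisson intervals that cover counting error. Grm3 was highest in oligodendrocytes, Grm5 was high in neurons and oligodendrocyte (OL) progenitors and low in the other glia, and Grm7 in oligodendrocytes was lower in the saline and VPA libraries (913 and 621 CPM) than in the other 3.

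Group I: Grm5 was abundant in neurons and in oligodendrocyte progenitors and low in astrocytes and mature oligodendrocytes. It averaged 1910 ± 176 CPM in thalamus-like, 1728 ± 82.3 in GABAergic-like, 1564 ± 95.02 in progenitor-like, 1189 ± 116 in Sim1-lineage-like and 966 ± 152 CPM in oxytocin-like nuclei (n = 5 libraries). The order thalamus over GABAergic over progenitor held in 5 of 5 libraries, though the ranges overlapped. Progenitor-like nuclei lay above Sim1-lineage-like nuclei in 5 of 5 libraries without overlap. With 5 libraries the two-sided exact paired permutation test cannot go below p = 0.0625, the value that each of these steps reached. Adjusted by Benjamini-Hochberg over the 54 steps and pairs of this kind, that value becomes 0.169 and the 0.125 of a 4-library pair becomes 0.25, so orders rest on how many libraries show them. Sim1-lineage-like and oxytocin-like nuclei were not separated (higher in 4 of 5 libraries, exact permutation p = 0.188).

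Along the oligodendrocyte lineage, the class means of the 3 members with the most UMIs there moved in different directions. Grm5 measured 1564 CPM in progenitor-like nuclei, 294 ± 49.3 in committed progenitor-like nuclei (n = 3 libraries with at least 20 nuclei) and 91.2 ± 42.9 in oligodendrocyte-like nuclei. Grm3 went the other way, from 84.4 ± 46.7 and 50.04 ± 9.69 to 1817 ± 208 CPM. Grm7 stayed above 1000 CPM on average throughout, at 1116 ± 179, 1460 ± 570 and 1408 ± 604. These are separate nuclei of each class and no time course was measured.

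In progenitor-like nuclei Grm5 read 1674 CPM in saline and 1540 in VPA, then 1469 in the control, 1483 in CNO 1 and 1652 in CNO 2. The groups overlapped and no library stood apart. To compare nuclei at equal depth, each was thinned to 2000 UMIs and shallower nuclei were left out. A UMI of Grm5 was then found in 87.8% to 90.8% of progenitor-like nuclei, against 9.09% to 26.1% of microglia-like nuclei. Microglia-like nuclei, in which each member averaged less than in each neuron class, serve here as the class for comparison. Grm5 and Grm7 averaged more in them than in astrocyte-like nuclei. The median depth was 3568 UMIs for progenitor-like and 1771 for microglia-like nuclei before thinning. Neuron transcripts were present in progenitor-like nuclei too, with the synaptic vesicle gene Syt1 at 193 to 1161 CPM, against 2373 to 2616 CPM in neuron-like nuclei. Syt1 in progenitors was several times higher in the second experiment (873 to 1161 CPM) than in the first (193 and 400 CPM). The part of neuron transcripts in the Grm5 level of these nuclei was not tested.

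Group II: Grm3 marked mature oligodendrocytes most strongly among the classes with 5 libraries. It read 2047 CPM in the saline library, 1666 in VPA, 1938 in the hM3 control, 1896 in CNO 1 and 1541 in CNO 2. Each of these was above every other 5-library class, and the step down to astrocyte-like nuclei (656 ± 109 CPM) was 1.48 ± 0.17 on the log2 scale of CPM plus 1 (n = 5, exact paired permutation p = 0.0625). Astrocyte-like nuclei read 815, 696, 630, 615 and 523 CPM in the same order of libraries. Oxytocin-like nuclei followed at 466 ± 113 CPM, below astrocytes in 5 of 5 libraries, and Sim1-lineage-like nuclei had 197 ± 31.1. Thalamus-like (156 ± 35.4) and GABAergic-like nuclei (141 ± 34.5) were not separated (exact permutation p = 0.25).

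Per nucleus, Grm3 was detected in 76.8% to 93.3% of oligodendrocyte-like and 59.0% to 73.2% of astrocyte-like nuclei thinned to 2000 UMIs. Microglia-like nuclei gave 5.26% to 17.4%, and GABAergic-like nuclei 17.3% to 24.7%. Thinning left out 288 of 529 oligodendrocyte-like nuclei in the VPA library and 361 of 548 in CNO 2, and those 2 libraries had the lowest oligodendrocyte shares. Mural-like nuclei (the cells that wrap small vessels) had 1548 CPM in VPA and 2065 CPM in CNO 2, the 2 libraries with at least 20 such nuclei. These rest on 129 and 115 UMIs. The saline library (16 nuclei), the hM3 control (17) and CNO 1 (6) read 3564, 1958 and 2955 CPM. Syt1 in mural-like nuclei ranged from 58.0 to 1608 CPM, and its part in these levels was not tested.

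Grm2, which in the forebrain is known as an autoreceptor of glutamatergic neurons, was near the detection limit in most classes. Thalamus-like nuclei had 10.8 and 11.9 CPM in the saline and VPA libraries, 11.25 in the hM3 control, and 12.1 and 6.23 in the CNO libraries, 554 of the gene's UMIs. That was 1.74 ± 0.40 above Sim1-lineage-like nuclei in log2 CPM plus 1, in 5 of 5 libraries and without overlap. The remaining neuron classes lay between 1.66 and 2.41 CPM and were not ordered beyond their spread. No UMI of Grm2 was counted in microglia-like, endothelial-like, committed progenitor-like or choroid plexus-like nuclei. In microglia-like nuclei of the saline library a count of 0 still allows a level of up to 18.2 CPM (that of 3 counts), above the thalamus value, so absence cannot be read there.

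Group III: Grm7 was detected in most nuclei of each neuron class and of the oligodendrocyte lineage. It averaged 3394 ± 314 CPM in thalamus-like nuclei, with 3877, 3479, 3283, 3297 and 3032 CPM in the saline, VPA, hM3 control and both CNO libraries. GABAergic-like nuclei had 1879 ± 101 and Sim1-lineage-like nuclei 1798 ± 84.3 CPM, not separated (exact permutation p = 0.125). Mural-like nuclei had 2449 CPM in VPA and 3610 in CNO 2, the libraries with at least 20 of them. The thalamus step was 0.85 ± 0.13 in log2, in 5 of 5 libraries and without overlap. At 2000 UMIs, 96.8% to 99.5% of thalamus-like nuclei held a UMI of Grm7. Astrocyte-like nuclei had 97.2 ± 17.8 CPM, below microglia-like nuclei in 5 of 5 libraries, and 12.4% to 18.7% of them held a UMI against 22.4% to 47.8% of microglia-like nuclei. The microglia level ranged from 147 to 966 CPM, the highest in CNO 1 from 23 nuclei. Free RNA was not measured, and its part in these low levels was not tested. Shares of nuclei within about the microglia range were also found for Grm5 and Grm8 in oligodendrocyte-like nuclei (9.75% to 21.4% and 3.62% to 7.40%), for Grm8 in astrocyte-like (4.45% to 9.93%) and progenitor-like nuclei (5.46% to 11.2%) and for Grm3 in progenitor-like nuclei (5.04% to 17.6%). Microglia-like nuclei held Grm5 in 9.09% to 26.1%, Grm8 in 1.32% to 13.0% and Grm3 in 5.26% to 17.4%, with 3 libraries that had at least 20 nuclei after thinning. Grm5 in astrocyte-like nuclei (18.5% to 28.4%) overlapped the microglia range too, whereas Grm7 in oligodendrocyte-like nuclei (50.2% to 80.2%) lay above it.

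Grm8 was present in each neuron class, at 619 ± 60.8 CPM in Sim1-lineage-like, 568 ± 61.1 in GABAergic-like, 531 ± 136 in oxytocin-like and 434 ± 111 in thalamus-like nuclei. None of these neighbours was separated, with exact permutation p from 0.188 to 0.562. Of the classes that are not neighbours in this order, Sim1-lineage-like nuclei (671, 678, 609, 612 and 527 CPM) lay above thalamus-like nuclei (439, 589, 474.5, 292 and 373 CPM) in 5 of 5 libraries, with overlapping ranges. The means of single neuron clusters with a named class ran from 200.1 CPM to 807 CPM in the Ebf2-led Sim1-lineage-like cluster. With doublets kept, Sim1-lineage-like nuclei fell to 490 CPM, below GABAergic-like (564 CPM) and oxytocin-like nuclei (528 CPM). Outside neurons Grm8 was high in choroid plexus-like nuclei, the epithelium that makes cerebrospinal fluid. There it reached 1344 CPM (95% Poisson interval 1253 to 1439), with a UMI in 70 of 75 nuclei, all from the saline library. The other members were at 0 to 44.5 CPM in the same nuclei, and Syt1 measured 425 CPM. This cluster exists in 1 library, so no spread can be given.

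Grm4 was concentrated in thalamus-like nuclei. Levels there were 81.0 CPM in the saline library, 53.45 in VPA, 67.8 in the hM3 control, 93.4 in CNO 1 and 49.6 in CNO 2. GABAergic-like nuclei followed at 14.2 ± 2.33 CPM, lower in 5 of 5 libraries by 2.18 ± 0.25 in log2. Astrocyte-like and oligodendrocyte-like nuclei had 5.49 and 2.09 CPM, from 72 and 15 UMIs in all. Neither Grm2 nor Grm4 is treated further in glia for want of counts.

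**Figure D2:**
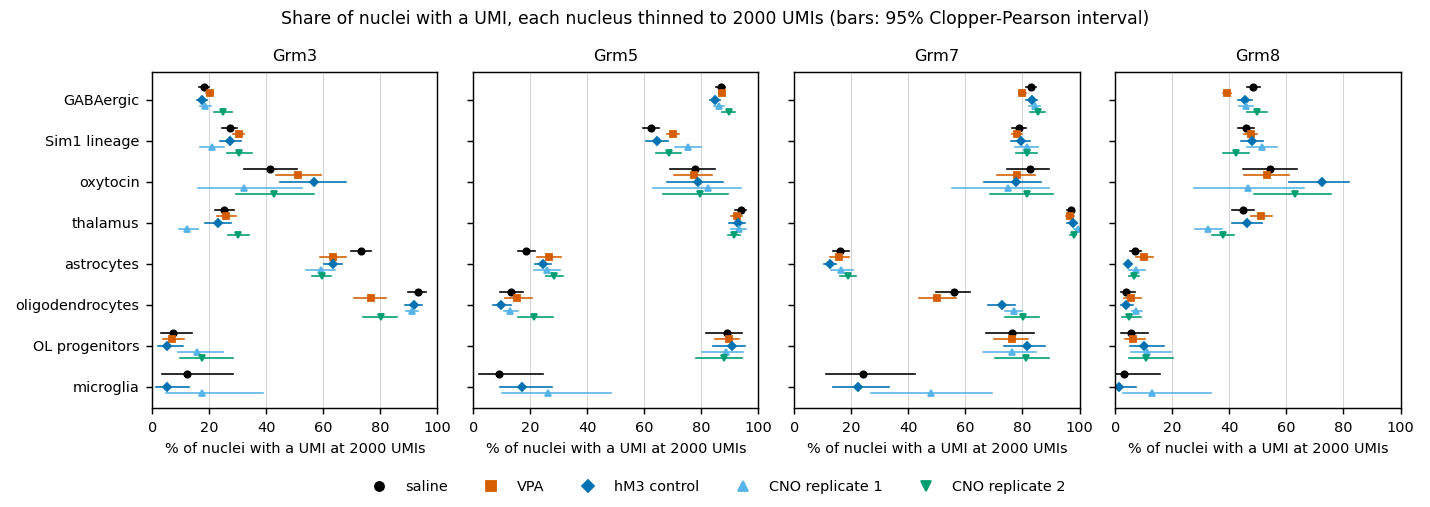
Share of nuclei with at least 1 UMI (horizontal axis, percent) in 8 classes (rows) and up to 5 libraries (colours and symbols) after thinning each nucleus to 2000 UMIs, with 95% Clopper-Pearson intervals. Grm3 was found in most oligodendrocytes and astrocytes, Grm5 in 87.8% to 90.8% of OL progenitors and 9.75% to 21.4% of oligodendrocytes, and Grm7 in 50.2% to 80.2% of oligodendrocytes.

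Receptors of different groups shared nuclei. At 2000 UMIs, Grm5 and Grm7 were both detected in 68.8%, 68.5%, 69.8%, 74.8% and 76.0% of neuron-like nuclei (first the saline and VPA libraries, then the control, CNO 1 and CNO 2). In thalamus-like nuclei the pair was present in 89.5% to 92.8%, and in progenitor-like nuclei in 68.2% to 72.3%. Grm3 with Grm7 was the corresponding pair of oligodendrocyte-like nuclei, at 51.6%, 39.0%, 68.0%, 71.5% and 63.6%. The 3 libraries of the second experiment lay above the 2 of the first in that pair. At least 3 of the 6 genes were detected in 43.9% to 50.8% of neuron-like nuclei and in 8.08% to 16.0% of oligodendrocyte-like nuclei.

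Within the neurons, clusters differed more than classes. The Sim1-lineage cluster led by Avp, the vasopressin gene, and the oxytocin-like cluster led by Oxt are the neurosecretory cells of this nucleus by their leading genes. Grm3 measured 1427, 989.5, 905.5 and 948 CPM in the Avp-led cluster (saline, VPA, hM3 control and CNO 2; CNO 1 had under 20 such nuclei). In the oxytocin-like cluster it measured 529, 560, 485 and 484 CPM in those libraries and 272 CPM in CNO 1. The Avp-led cluster was higher in 4 of 4 libraries without overlap, by 1.03 ± 0.27 in log2 (n = 4, exact paired permutation p = 0.125, the smallest possible).

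Grm5 showed the reverse and Grm7 the same direction in this pair. The Avp-led cluster held 151.5, 97.8, 183 and 244 CPM of Grm5, 169 ± 60.9 in all, the lowest mean of any neuron cluster in the named classes. The oxytocin-like cluster held 1094, 788, 1097 and 1033 CPM in the same libraries, higher in 4 of 4 by 2.62 ± 0.40 in log2 (exact permutation p = 0.125). Grm7 averaged 3827 CPM in the Avp-led cluster and 1331 CPM in the oxytocin-like cluster, a difference of 1.53 ± 0.15 in log2 over 4 libraries (exact permutation p = 0.125). Grm8 did not separate them (666 against 579 CPM over 4 libraries, higher in 2 of 4, exact permutation p = 0.75). At clustering resolution 0.5 the class named oxytocin-like had 628 CPM of Grm3, 755 CPM of Grm5 and 1976 CPM of Grm7, so its levels depend on how finely these cells are split.

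Other Sim1-lineage clusters also varied in Grm5. The cluster led by Ebf2, a transcription factor gene, had 1752 ± 169 CPM and that led by Agtr1a, the angiotensin receptor gene, 572 ± 200 CPM. In the Agtr1a-led cluster Grm5 read 299 CPM in the saline library, 428 in VPA, 776 in the hM3 control, 670 in CNO 1 and 688 in CNO 2. The experiments did not overlap in it, as was the case for 33.3% of all genes in the Sim1-lineage-like class as a whole. They differ in genotype, virus, age and preparation, which cannot be told apart.

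Thalamus-like neurons split in Grm4 and Grm8. The cluster led by Synpo2, an actin-binding protein gene, had 96.6 CPM of Grm4 and 223 CPM of Grm8. The cluster led by Lhx9, a LIM homeodomain factor gene, had 47.7 CPM of Grm4 and 604 CPM of Grm8. Each difference held in 5 of 5 libraries without overlap, at 1.04 ± 0.26 in log2 for Grm4 and 1.45 ± 0.37 for Grm8 (n = 5, exact paired permutation p = 0.0625 for each). Grm7 was higher in the Synpo2-led cluster too (3847 against 3039 CPM, 5 of 5 libraries), whereas Grm3 was not separated (exact permutation p = 0.688).

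**Figure D3:**
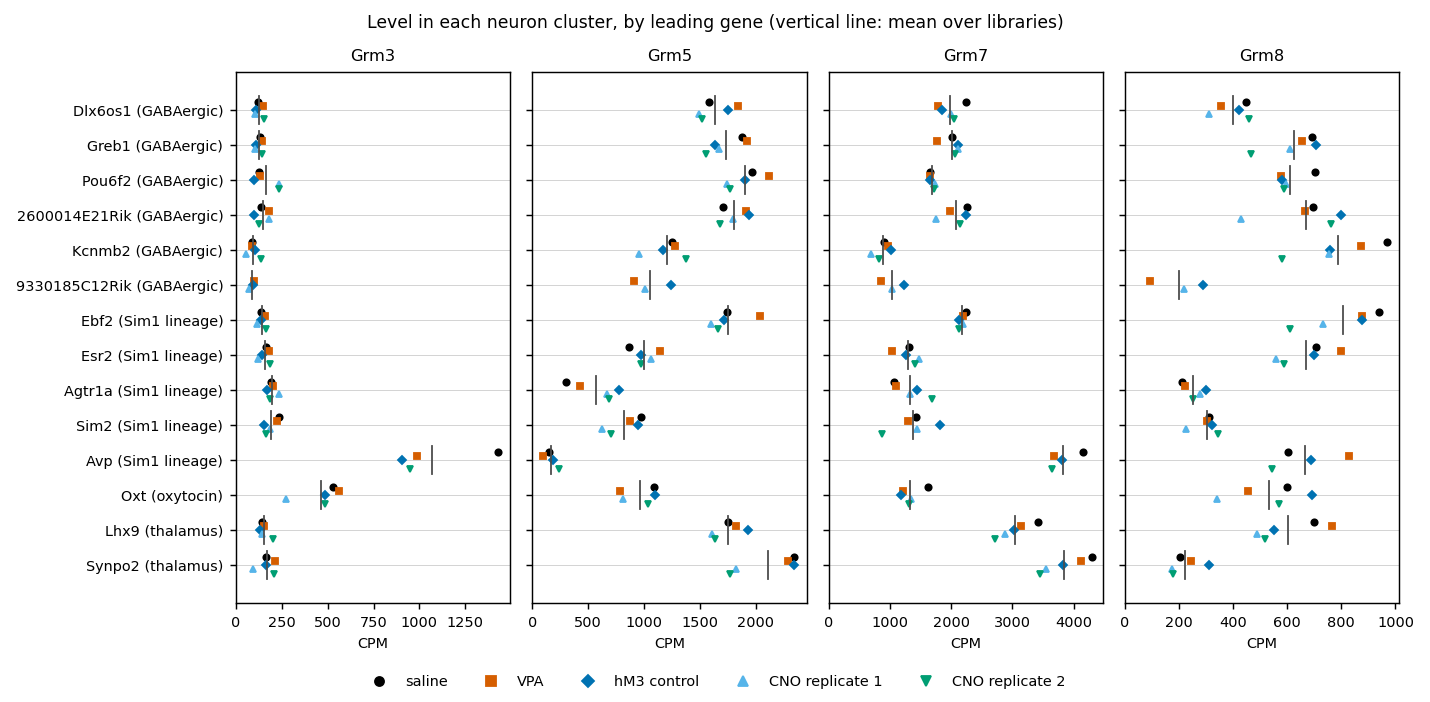
Level of 4 members in CPM (horizontal axes, linear) in each neuron cluster of at least 50 nuclei, named by its leading gene and class (rows); points are libraries with at least 20 nuclei of the cluster and vertical lines their mean. The Avp-led cluster was high in Grm3 (1068 CPM) and Grm7 (3827 CPM) and low in Grm5 (169 CPM).

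The genes whose level followed each member most closely were ranked by Pearson's r of log2 CPM plus 1, among 15109 genes. It was taken over 24 units, the neuron clusters of the named classes and the whole non-neuronal classes. These units share libraries and depth, so r is a description. The closest to Grm5 were Rph3a (r = 0.950), which encodes a synaptic vesicle protein, Egfem1 (0.945) and the GABA-A receptor subunit gene Gabrg3 (0.934). For Grm7 they were Rnf112 (0.908), Cadps (0.883), a gene of dense-core vesicle release, and Map6 (0.881). Grm4 was followed by Camkv (0.879), Pdp1 (0.865) and Ppp4r4 (0.850), Grm8 by Gm36388 (0.917), Ndufaf5 (0.904) and Cgn (0.897), Grm2 by 1700112D23Rik (0.816), Hrh3 (0.811) and Olfm1 (0.808), and Grm3 by Tubb3 (0.787), Gm16794 (0.786) and Gstp1 (0.785). Among the members themselves, r was 0.796 for Grm2 with Grm4, 0.751 for Grm4 with Grm5, 0.6945 for Grm2 with Grm5 and 0.638 for Grm5 with Grm7, the 4 highest of 15 pairs. It lay between -0.324 and 0.432 for Grm3 with any other member.

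Partners of the receptors were described from fixed gene lists. On the Gq arm used by Grm5, the phospholipase gene Plcb1 averaged 3398 CPM in astrocyte-like, 877 in neuron-like and 120 CPM in oligodendrocyte-like nuclei, and Gnaq lay between 310 and 509 CPM in neurons, astrocytes and oligodendrocytes. On the Gi/o arm used by the other 5, Gnao1 reached 926 CPM in oligodendrocyte-like against 337 in neuron-like and 271 CPM in astrocyte-like nuclei. The potassium channel genes Kcnj3 and Kcnj6, opened by this arm in neurons, were at 344 and 185 CPM in neuron-like and 21.5 and 7.72 CPM in oligodendrocyte-like nuclei. The glutamate transporter genes Slc1a2 and Slc1a3 were at 3343 and 2173 CPM in astrocyte-like nuclei. Grm6, a related receptor outside the 6, had a mean of 0 in the neuron, astrocyte and oligodendrocyte classes.

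The VPA comparison asked what prenatal valproate changed. It sets 1 library against 1, so there is no replicate check and no p-value, and treatment and preparation cannot be told apart. A fold of 1.5 in either direction was used to mark a member. Of 41 pairs of a member and a class with at least 20 UMIs, 4 passed it. In neuron-like nuclei 1 of 6 members passed, against 12.6% of all genes there, in GABAergic-like 0 of 6 (11.9%), in Sim1-lineage-like 0 of 6 (12.2%), in oxytocin-like 0 of 4 (16.1%) and in thalamus-like 1 of 6 (16.1%). In astrocyte-like nuclei it was 1 of 5 (17.3%), in oligodendrocyte-like 0 of 4 (22.1%) and in progenitor-like 1 of 4 (21.3%). At this minimum of 20 UMIs the members' share lay near or below that of all genes. With at least 100 UMIs, a smaller share of genes passed. It was 1110 of 15470 in neuron-like, 839 of 10581 in thalamus-like, 438 of 6321 in astrocyte-like and 144 of 2523 in progenitor-like nuclei. The 4 pairs that passed also had at least 100 UMIs, so the comparison depends on this threshold.

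Grm4 was lower in VPA neurons. It fell from 30.15 CPM in the saline library (1696 UMIs) to 15.85 CPM in VPA (818 UMIs). The log2 ratio was -0.93 (95% counting interval -1.05 to -0.81). The hM3 control, CNO 1 and CNO 2, all exposed to valproate too, read 22.6, 35.3 and 29.6 CPM. Thalamus-like nuclei, where Grm4 is high, made up 18.25% of the neuron-like class in saline and 9.39% in VPA. Within them Grm4 was 81.0 and 53.45 CPM, a log2 ratio of -0.60 (-0.78 to -0.43), just past the fold. It was short of the fold at -0.32 with nuclei thinned to 2000 UMIs, -0.55 as the mean of per-nucleus CPM and -0.58 with a clustering resolution of 0.5. With each cluster given equal weight the ratios were -0.31 in neuron-like and -0.35 in thalamus-like nuclei, past neither threshold. In GABAergic-like nuclei Grm4 measured 15.5 and 11.3 CPM (log2 -0.46) and in Sim1-lineage-like nuclei 12.7 and 8.92 CPM (log2 -0.51).

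In neuron-like nuclei as a whole, Grm5, Grm7, Grm8 and Grm3 were short of the fold. Grm5 read 1591 CPM in saline and 1693 in VPA neurons (log2 0.09), Grm7 2351 and 1930 (-0.28), Grm8 600.0 and 552.5 (-0.12) and Grm3 173 and 179 CPM (0.05). Within neurons, Grm8 was lower in VPA in GABAergic-like nuclei (642 and 485 CPM, log2 -0.41, -0.44 to -0.37) and higher in thalamus-like nuclei (439 and 589 CPM, 0.42, 0.37 to 0.48), both short of the fold. The single thalamus-like clusters differed less, at 699 and 765 CPM (Lhx9-led) and 206 and 245 CPM (Synpo2-led). In oxytocin-like nuclei (116 and 160 nuclei) 3 of the 4 members with enough counts were lower in VPA without reaching the fold. Grm5 measured 1094 and 788 CPM (log2 -0.47, -0.58 to -0.37), Grm7 1621 and 1222 (-0.41) and Grm8 598 and 456 (-0.39). Grm3 measured 529 and 560 CPM (0.08).

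In glia, Grm8 was past the fold in opposite directions. Astrocyte-like nuclei had 45.9 CPM in saline and 74.45 in VPA (log2 0.70, 0.35 to 1.05), from 117 and 167 UMIs. Neuron transcripts were higher in VPA in these astrocyte-like nuclei too, with Syt1 at 79.98 and 156.9 CPM and Snap25 at 54.1 and 82.03 CPM. Their part in the Grm8 level was not tested. Progenitor-like nuclei had 123 and 34.9 CPM (log2 -1.82, -2.50 to -1.18). A single saline nucleus held 54.2% of the 83 UMIs in that class, where the share of nuclei with Grm8 was within the microglia range, and 12 of 111 nuclei had any. Without the nucleus highest in Grm8 in each library the values were 61.4 and 32.5 CPM (log2 -0.92), with nuclei thinned to 2000 UMIs the log2 ratio was 0.10, and with doublets kept 0.81. Neuron transcripts in progenitor-like nuclei were also higher in saline than in VPA, with Syt1 at 400 and 193 CPM and Meg3 at 1671 and 1064 CPM. Their part in the result was not tested. In oligodendrocyte-like nuclei Grm3 was 2047 and 1666 CPM (log2 -0.30, -0.38 to -0.21) and Grm7 913 and 621 (-0.56, -0.70 to -0.42), both short of the fold for the whole class. Its clusters differed. In the main cluster, led by Anln, Grm7 was 957 and 591.5 CPM and Grm3 2268 and 2147 CPM. In a smaller cluster led by Cldn14, with 30 nuclei in saline and 99 in VPA, Grm7 was 665 and 692 CPM and Grm3 787 and 494.5 CPM.

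In neuron-like nuclei 12.6% of all genes were past the fold in either direction. On the Gq list, with 12 measured genes there, 1 was past the fold upward and 1 downward, and the median log2 ratio was -0.03 against 0.08 for all genes. On the Gi/o list 1 of 17 was past it downward, Adcy8, an adenylyl cyclase gene, at 237 and 157 CPM (-0.59), with a median of -0.07. Of 13 regulators (such as RGS proteins, receptor kinases and arrestins) 0 passed, with a median of -0.02. Of 13 binding partners measured, Homer3 alone passed, at 0.693 and 1.38 CPM, with a median of -0.12. Of 9 genes of glutamate release and clearance, the vesicular transporter genes Slc17a7 (2.01 and 0.969 CPM) and Slc17a8 (2.70 and 1.32 CPM) were lower, with a median of -0.10. Like Grm4, both were higher in thalamus-like nuclei (5.19 and 7.97 CPM in the saline library) than in all neurons. In oligodendrocyte-like nuclei, where 22.1% of all genes were past the fold, 4 of 13 measured Gi/o genes and 2 of 6 regulators were higher in VPA and 0 lower. The Gi/o genes were Kcnj3, a potassium channel gene (9.57 and 30.01 CPM), Adcy2, Gnai2 and Gnb5. Kcnj3 averaged 344 CPM in neuron-like nuclei, and the neuron gene Snap25 was also higher in VPA in these oligodendrocyte-like nuclei (41.8 and 64.3 CPM). The part of neuron transcripts in these counts was not tested. In progenitor-like nuclei (21.3% of all genes) 3 of 15 Gi/o genes were lower in VPA and 0 higher, among them Adcy8 at 236 and 133 CPM. Syt1 and Meg3 were lower in VPA in these nuclei too, as given above, and their part in the count was not tested.

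The CNO comparison asked what differed after CNO was given to newborn VPA-exposed mice. It set CNO 1 and CNO 2 against the single hM3 control library. The edgeR quasi-likelihood test with Benjamini-Hochberg adjustment over all genes of a class was run in 7 classes, with 1 residual degree of freedom, and it assumes that the lone control varies like the CNO libraries. It called 0 of 38 tests of a member at an adjusted p under 0.05. DESeq2 also called 0. Of all genes, edgeR called 0.0204% in neuron-like, 0.00545% in GABAergic-like, 0.0145% in astrocyte-like, 0.141% in oligodendrocyte-like and 0.138% in progenitor-like nuclei. In Sim1-lineage-like and thalamus-like nuclei it called 0 genes (0.0% each), with 362 and 478 at an unadjusted p under 0.05, while DESeq2 called 0 and 3. Oxytocin-like nuclei were too few for the test (28 in CNO 1).

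Counted by a fold of 1.5 in the same direction in both CNO libraries, 4 of 42 pairs of a member and a class passed. No member passed in neuron-like (0 of 6, against 7.82% of all genes), GABAergic-like (0 of 6, 7.49%), Sim1-lineage-like (0 of 6, 7.24%), oxytocin-like (0 of 4, 7.28%), thalamus-like (0 of 6, 8.87%) or astrocyte-like nuclei (0 of 5, 9.46%). In oligodendrocyte-like nuclei 2 of 4 passed (13.0%) and in progenitor-like nuclei 2 of 5 (10.7%).

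In oligodendrocyte-like nuclei Grm5 and Grm8, whose shares of nuclei there were within the microglia range, had higher levels in both CNO libraries, short of the test. Grm5 read 46.4 CPM in the hM3 control, 81.0 in CNO 1 and 160 in CNO 2. The edgeR log2 fold change was 1.202 ± 0.41 (SE), with an adjusted p of 0.592 by Benjamini-Hochberg. Grm8 read 21.2, 39.4 and 46.5 CPM, with an edgeR log2 fold change of 0.87 ± 0.45 (SE) and an adjusted p of 1.00. With equal weight for each cluster the log2 ratio of the Grm8 means was 0.41, short of the fold, against 1.02 as reported. That of Grm5 was 1.38, and 0.66 with doublets kept. The neuron gene Snap25 in the same nuclei read 31.8, 57.7 and 98.7 CPM, in the same order of libraries as both receptors. Its part in the result was not tested. Grm3 (1938, 1896 and 1541 CPM) and Grm7 (1843, 1985 and 1678 CPM), the members detected in most nuclei of this class, stayed within a fold of 1.5 of the control.

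In progenitor-like nuclei Grm8 had lower and Grm3 higher levels in both CNO libraries, also short of the test. Grm8 read 296 CPM in the hM3 control, 178 in CNO 1 and 143 in CNO 2. The edgeR log2 fold change was -0.96 ± 0.30 (SE), with an adjusted p of 0.396, the lowest of the 38, and with doublets kept the log2 ratio of the means was 0.45. Grm3 read 82.7, 129 and 133 CPM (edgeR log2 fold change 0.57 ± 0.35 SE, adjusted p = 1.00). A single CNO 1 nucleus held 38.9% of the 113 Grm3 UMIs there. Without the nucleus highest in Grm3 in each library the values were 71.6, 84.4 and 123 CPM, and the log2 ratio of the means was 0.53, short of the fold, against 0.67 with them. It was 2.01 with nuclei thinned to 2000 UMIs and 1.34 with doublets kept. For Grm8 thinning gave -0.46, short of the fold, against -0.88 without it. Syt1 read 1161, 873 and 904 CPM in these nuclei and Meg3 3940, 4453 and 2844, and the oligodendrocyte gene Mog 6.68, 21.7 and 32.6 CPM. Mog was thus highest where Grm3 was highest and Grm8 lowest, and the part of either kind of transcript was not tested.

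In neuron-like nuclei as a whole, Grm5, Grm7, Grm8 and Grm3 stayed within a fold of 1.5 of the control. Grm5 read 1630, 1609 and 1570 CPM and Grm7 2115, 2264 and 2349 in the neuron-like class (control first, then both CNO libraries). The makeup of the class differed, with thalamus-like nuclei, where Grm7 is high, at 12.8%, 16.2% and 33.5% of it and GABAergic-like nuclei at 62.3%, 67.7% and 40.7%. Within GABAergic-like nuclei Grm7 was 1916, 1954 and 1831 CPM and within thalamus-like nuclei 3283, 3297 and 3032 CPM, lowest in CNO 2 in both. Grm8 was lower in both CNO libraries, at 588, 491 and 470 CPM (edgeR log2 fold change -0.39 ± 0.18 SE, adjusted p = 1.00). Grm3 went in opposite directions, at 143, 132.5 and 213 CPM. Within GABAergic-like nuclei Grm3 was higher in both CNO libraries, at 107, 135 and 198 CPM. In Sim1-lineage-like (191, 145.5 and 216 CPM) and thalamus-like nuclei (140, 111 and 205 CPM) it was lower in CNO 1 alone. Grm4 in neuron-like nuclei read 22.6, 35.3 and 29.6 CPM, past the fold in CNO 1 alone. In oxytocin-like nuclei Grm8 was 692, 339 and 570 CPM and Grm3 485, 272 and 484 CPM. In both genes CNO 1, with 28 nuclei, lay apart from the other 2 libraries, and CNO 2 stayed near the control.

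**Figure D4:**
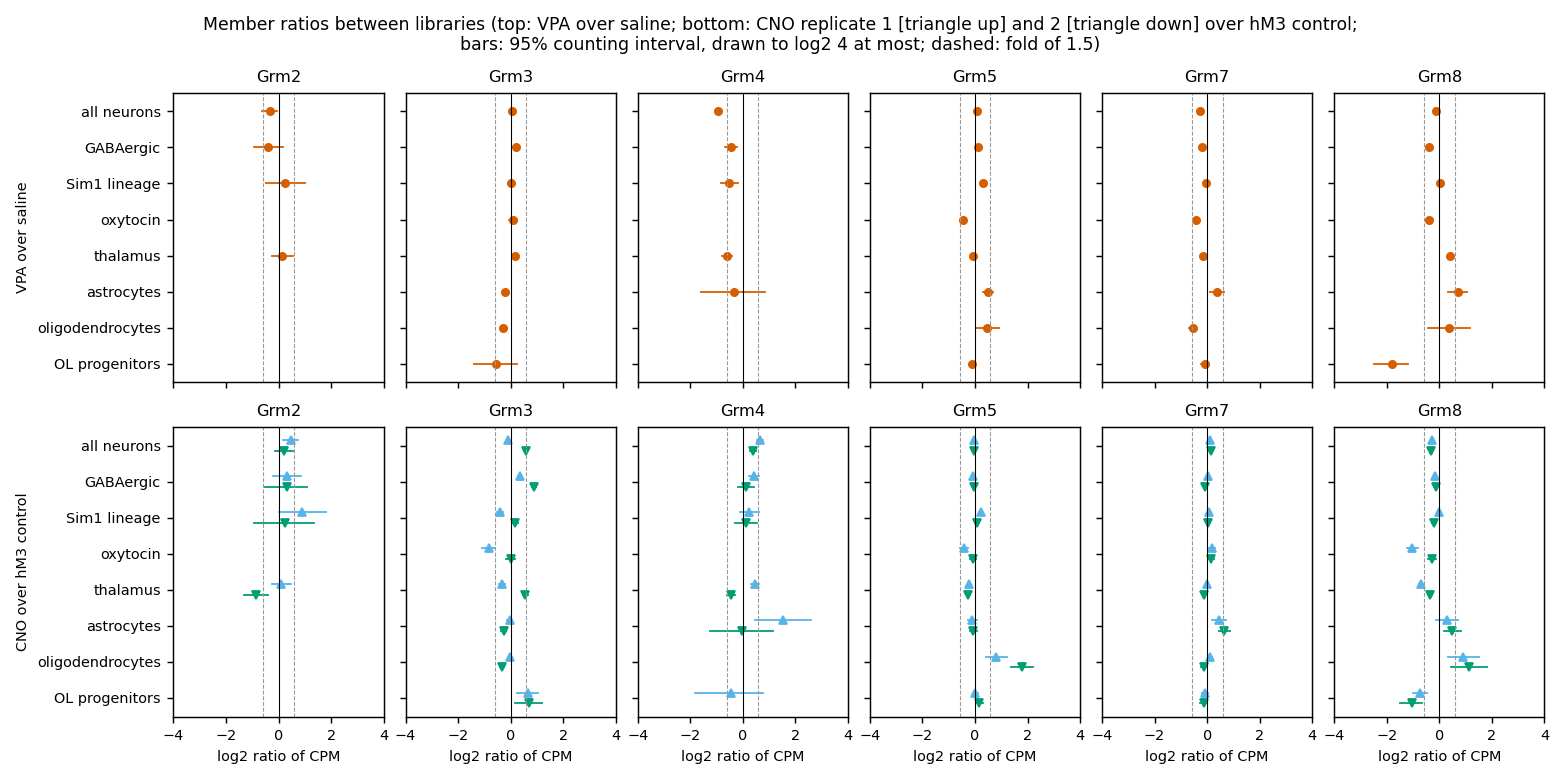
Log2 ratio of CPM (horizontal axis) of each member (columns) in 8 classes (rows): VPA over saline in the upper panels, CNO replicates 1 (triangle up) and 2 (triangle down) over the hM3 control in the lower panels, with 95% counting intervals and dashed lines at a fold of 1.5. Past the fold in the upper panels were Grm4 in all neurons and thalamus, and Grm8 in astrocytes and OL progenitors; in the lower panels, with both CNO libraries, Grm5 and Grm8 in oligodendrocytes and Grm3 and Grm8 in OL progenitors.

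Among the lists, 4 of 12 measured regulators were past the fold upward in astrocyte-like nuclei of both CNO libraries, with a median log2 ratio of 0.68 against 0.11 for all genes, of which 9.46% were past the fold in either direction. Among them was Rgs4, a gene that shortens G protein signals, at 3.57, 13.6 and 12.5 CPM. Ncdn, also on the list, read 13.4, 20.4 and 20.95 CPM. Genes typical of neurons on the other lists were higher in the same nuclei, the vesicular transporter gene Slc17a6 at 4.83, 14.2 and 13.9 CPM and the adenylyl cyclase gene Adcy1 at 6.30, 20.96 and 13.9 CPM. Over the 5 libraries, Slc17a6 averaged 59.2 and Adcy1 41.75 CPM in neuron-like nuclei, whereas Rgs4 averaged 6.78 and Ncdn 16.1 CPM there, below their CNO values in astrocyte-like nuclei. The part of neuron transcripts in the regulator count was not tested. An astrocyte cluster rich in interferon genes made up 33.1% of astrocyte-like nuclei in the hM3 control, 55.9% in CNO 1 and 94.5% in CNO 2, and its part in these values was not tested. In thalamus-like nuclei 2 of 13 binding partners were past the fold upward (8.87% of all genes), among them the Grm5 scaffold gene Homer2 at 49.1, 127 and 76.2 CPM. In oligodendrocyte-like nuclei 2 of 9 Gq genes were past it downward (13.0% of all genes), Plcb1 (162, 48.1 and 89.2 CPM) and Itpr2 (56.3, 20.2 and 19.0 CPM). On the Gi/o list in neuron-like nuclei 0 of 17 passed, with a median of -0.08 against 0.11.

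Grm7 in oligodendrocyte-like nuclei was higher in each library of the second experiment than in both of the first. It was 913 and 621 CPM in the saline and VPA libraries of the first experiment and 1843, 1985 and 1678 CPM in the second (control, CNO 1, CNO 2). The experiments did not overlap, and their means differed by 1.26 in log2. Such a gap was common: in this class 1 of 5 members measured did not overlap, against 29.6% of all genes, and 16.5% of genes both did not overlap and differed 1.5-fold. Without the oligodendrocyte cluster rich in interferon genes (14.6%, 5.73% and 9.85% of the class in the second experiment and 0 nuclei in the first), Grm7 read 1555, 1955 and 1517 CPM. The Cldn14-led cluster held 30 and 99 nuclei in the first experiment and 16, 17 and 11 in the second. In the Anln-led cluster alone Grm7 was 957 and 591.5 CPM against 1663, 1984 and 1540, also without overlap. The share of nuclei with a UMI at equal depth followed, at 55.8% and 50.2% in the first experiment and 72.7%, 77.0% and 80.2% in the second. Snap25 in these nuclei did not separate the experiments (41.8 and 64.3 against 31.8, 57.7 and 98.7 CPM). Genotype, virus, age and preparation cannot be told apart here.

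In progenitor-like nuclei 3 of 5 members did not overlap between the experiments (33.2% of all genes) and were higher in the second: Grm3, Grm7 and Grm8. The neuron gene Syt1 in the same nuclei was 400 and 193 CPM in the first experiment and 873 to 1161 CPM in the second, and its part in these values was not tested. For 2 of them, Grm3 and Grm8, the means were also past a fold of 1.5 (1.58 and 1.38 in log2, and 20.1% of all genes). Grm7 was 957 and 897 CPM against 1308, 1229 and 1190. In astrocyte-like nuclei 3 of 6 did not overlap (35.0%), with Grm3 lower in the second experiment (815 and 696 against 630, 615 and 523 CPM), Grm8 lower and Grm5 higher, and of these Grm8 past a fold of 1.5 in its means (18.9% of all genes). Without the interferon-gene astrocyte cluster Grm3 read 812.5 and 690.4 against 692.0, 679.5 and 609.8 CPM, and the experiments overlapped, as they did for Grm5 and Grm8. In the neuron-like class as a whole 0 of 6 members did not overlap (33.7% of all genes), against 1 of 6 in GABAergic-like (34.0%), 4 of 6 in Sim1-lineage-like (33.3%), 2 of 5 in oxytocin-like (27.1%) and 1 of 6 in thalamus-like nuclei (33.5%). Of these, Grm4 in oxytocin-like nuclei, with 30 UMIs in all, was the 1 with means past the fold (13.1% of genes in that class).

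**Figure D5:**
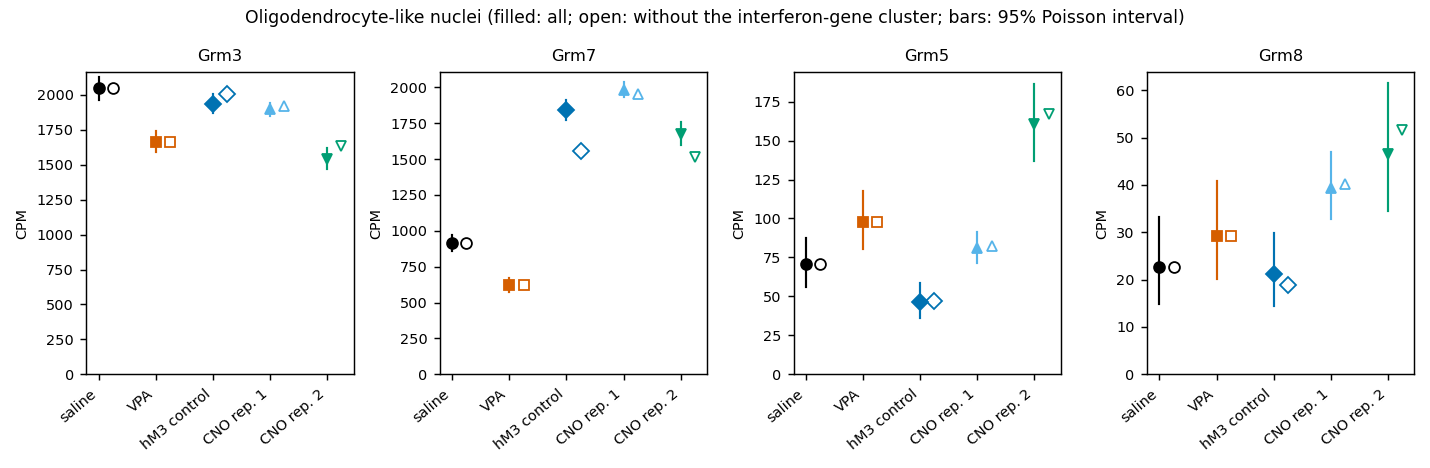
Level in CPM (vertical axes, from 0) of 4 members in oligodendrocyte-like nuclei of each library, with 95% Poisson intervals; open symbols leave out the interferon-gene cluster. Grm7 was 621 and 913 CPM in the VPA and saline libraries and at 1517 CPM or more in the 3 libraries of the second experiment with or without that cluster, whereas Grm3 did not separate the experiments.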

How the data were processed

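The deposited values are raw UMI counts per gene and nucleus, made by the authors with Cell Ranger 7.0.1 on mm10, per the submitters' processing notes; the handling of introns and strand is not given in the sources used here. Nuclei under 1000 UMIs or over 5% mitochondrial counts were left out. Scrublet's automatic threshold marked under 0.5% in 4 of 5 libraries, so the top scorers were removed instead, at 0.8% per 1000 nuclei. Clustering (scanpy 1.11.5, Leiden, resolution 1, 2000 variable genes, 30 components) left out Grm genes, Oxt, Avp and Cre. Classes were named from fixed markers with thresholds set after the clusters were seen.

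Counts were summed per class and library. The CNO comparison used edgeR 4.0.16 quasi-likelihood tests with Benjamini-Hochberg adjustment and DESeq2 1.42.0 as alternative, tested on simulated data. Poisson, conditional binomial and Clopper-Pearson intervals are at 95%. Paired permutation tests are exact and two-sided; over the 42 neighbour steps and 12 cluster pairs computed, the Benjamini-Hochberg value is 0.169 for a raw 0.0625 and 0.25 for a raw 0.125.

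The 6 members and the gene lists were chosen with earlier results of these data known. Named are all members, the 3 genes most like each, and list genes past a fold of 1.5 (at most 4 per list and class), some of which are not reported here; list genes given for their level alone were chosen after their values were seen.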

Additional observations from a re-analysis of the deposited data

Results flagged for a closer look

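Grm8 differed in opposite directions between glial classes in the VPA comparison. Its log2 ratio of VPA over saline was 0.70 in astrocyte-like nuclei and -1.82 in progenitor-like nuclei. The direction in progenitor-like nuclei depended on the processing: the ratio was 0.81 with doublets kept and 0.10 with nuclei thinned to 2000 UMIs. It was -0.92 without the nucleus highest in Grm8 in each library, since 1 saline nucleus held 54.2% of the 83 UMIs. In astrocyte-like nuclei Syt1 was also higher in VPA, at 79.98 CPM in saline and 156.9 CPM in VPA. Its part in the ratio there was not tested. The difference between the classes was not tested, since each group is 1 library.

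Grm8 also differed in opposite directions in the CNO comparison. The log2 ratio of the mean of both CNO libraries over the hM3 control was 1.02 in oligodendrocyte-like and -0.88 in progenitor-like nuclei, and both libraries had the same sign within each class. In progenitor-like nuclei the ratio was 0.45 with doublets kept and -0.46 with nuclei thinned to 2000 UMIs. In oligodendrocyte-like nuclei it was 0.41 with equal weight for each cluster, short of a fold of 1.5. The difference was not tested.

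Grm4 stood out in a cluster that the classes leave out. The cluster led by Gabra6, a GABA-A receptor subunit gene known from cerebellar granule cells, had 483.7 CPM of Grm4 in the VPA library, from 105 UMIs. It held 120 nuclei of that library and 1 of the saline library. With this cluster included, Grm4 in VPA neurons was 17.81 CPM in place of 15.85 CPM.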

How the results depend on the processing

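The class with the highest mean stayed the same under 6 alternatives for Grm2, Grm3, Grm4, Grm5 and Grm7; for Grm8 it changed with doublets kept. The log2 ratio of Grm8 in progenitor-like nuclei reversed, in VPA to 0.81 with doublets kept and 0.10 after thinning to 2000 UMIs, and in CNO to 0.45 with doublets kept. Of the other log2 ratios recomputed, 606 moved by less than the spread and 151 by more. Pairs past the fold in VPA (4) numbered 7 with doublets kept and 2 by the mean of per-nucleus CPM. Pairs in CNO (4) numbered 2 with doublets kept and 8 to 10 with either CNO replicate left out, where 1 library has to pass in place of both. With at least 100 UMIs, fewer genes and a smaller share of them were past the fold in VPA. It was 1110 of 15470 in neuron-like nuclei, from 2429 of 19214. GABAergic-like nuclei had 778 of 13655 (from 2084 of 17488) and Sim1-lineage-like 641 of 12450 (from 2011 of 16495). Oxytocin-like nuclei had 232 of 5144 (from 1723 of 10670) and thalamus-like 839 of 10581 (from 2372 of 14726). Astrocyte-like nuclei had 438 of 6321 (from 2015 of 11656). Oligodendrocyte-like nuclei had 287 of 3507 (from 1876 of 8505) and progenitor-like 144 of 2523 (from 1621 of 7605).

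Genes called in CNO were 4 in neuron-like nuclei (29 with no filter, 7 by DESeq2), 1 in GABAergic-like (6 with no filter, 0 by DESeq2, 3 with doublets kept), 0 in Sim1-lineage-like (7 with no filter, 5 with doublets kept) and 0 in thalamus-like (3 by DESeq2, 2 with doublets kept, 2 at a minimum of 2000 UMIs). They were 2 in astrocyte-like (8 with no filter, 0 by DESeq2, 0 with doublets kept, 4 at 2000 UMIs), 15 in oligodendrocyte-like (1 by DESeq2, 0 with doublets kept) and 14 in progenitor-like nuclei (0 by DESeq2). The cause was not tested. Members called stayed at 0 in each of these settings. Leaving out a CNO replicate leaves 1 library against 1 and no test. Kept unnamed neurons, left-out interferon-gene glia and the left-out top nucleus were chosen after seeing the data. No paired analysis was possible because the hM3 control and the saline and VPA groups have 1 library each, so the compared groups share fewer than 2 replicate numbers.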
